A study of Mus musculus with 10 samples.

Results

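The genes described here are 9 receptors for relaxin, neurotensin, tachykinin and somatostatin peptides, namely Rxfp1, Ntsr1, Ntsr2, Tacr1, Tacr3, Sstr1, Sstr2, Sstr3 and Sstr4. They were taken by symbol from the 33502 genes of a single-nucleus RNA-seq matrix of the mouse paraventricular thalamus (PVT) and its surroundings, and 9 of 9 were found. Their UMIs (unique molecular identifiers, each standing for a captured transcript) were summed for each library and cell type, and for each library and group of neurons. The genes were chosen by their measured levels across the deposited cell types and the groups of neurons, so those levels are described here without a test. The matrix held 20503 nuclei of 10 libraries from C57BL/6J mice of 12 weeks, with no treatment and no transgene. Libraries 1 to 4 carry no sex in their titles and are Male in the deposited table of nuclei, and the other 6 libraries are titled female. The study's methods describe a set of 4 samples, each of punches pooled from 4 mice, so a library is not an animal, and how many mice made a female library is not stated. The gene lists and the depth of the male and female libraries also differed, so sex cannot be told apart from the set of libraries.

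These receptors sit in the cell membrane and act through G proteins. RXFP1 is the receptor of relaxin and raises cyclic AMP through Gs, while NTSR1 binds neurotensin, and TACR1 and TACR3 prefer substance P (made from Tac1) and neurokinin B (made from Tac2), and these couple to Gq and phospholipase C. NTSR2 is a low-affinity neurotensin receptor known from astrocytes, and the somatostatin receptors couple to Gi and Go, which lower cyclic AMP and open inward-rectifier potassium channels. The PVT is a midline thalamic nucleus that receives many peptidergic inputs, and it borders the habenula and the mediodorsal thalamus.

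Levels are given as counts per 1000000 UMIs of a library and class (CPM), leaving out mitochondrial genes and classes of fewer than 10 nuclei in a library. Male libraries held 875 to 7213 nuclei with a median of 12586 to 21085 UMIs per neuron, and female libraries 1049 to 1615 nuclei with a median of 5666 to 9770. Across the 45 pairs of libraries, 46 cell barcodes were shared, at most 8 in a pair. Xist was at 0.171 to 0.396 CPM in the male and 863 to 1383 CPM in the female libraries, which fits the sexes given. Defining markers were highest in their own deposited type, for example Agt (1546 CPM) in astrocytes, Pdgfra (1137 CPM) in oligodendrocyte precursor cells (OPCs) and Rbfox3 (232 CPM) in neurons. The neuronal transcript Snap25 reached 13.1% to 34.2% of its neuronal level in the other types, so low levels of a neuronal receptor outside neurons could not be told apart from free RNA. Male library 2 stood apart from the other male libraries, since its nuclei had a median of 1.30% mitochondrial UMIs in the deposited table. The other male libraries had 0.123% to 0.404% there and the female libraries 1.04% to 1.45%. The matrix held 0 mitochondrial UMIs of male and 562659 of female libraries, so the male percents could not be recomputed from it. Receptor values without male library 2 are given where a call changed.

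Promoter sequences were available for 7 of the 9 genes, and Rxfp1 and Sstr1 are named only. The 250 bases before the RefSeq start (build GRCm38.p6) are shown for Tacr1 and Sstr2, the receptors whose lowest library in Nwd2-high neurons was above every library of the other marker groups, and for Tacr3, the tachykinin receptor of a different group of neurons. Capitals mark letters that match, on either strand, 1 of 5 motifs of promoters. The motifs are the GC box, whose letters are GGGCGG, and the CCAAT box. The E-box, searched as CANNTG with N for any base, was the most frequent of them. The TATA box was searched as TATAAA and the cyclic AMP response element as TGACGTCA.
Sstr2, chr11:113619077-113619326, plus strand: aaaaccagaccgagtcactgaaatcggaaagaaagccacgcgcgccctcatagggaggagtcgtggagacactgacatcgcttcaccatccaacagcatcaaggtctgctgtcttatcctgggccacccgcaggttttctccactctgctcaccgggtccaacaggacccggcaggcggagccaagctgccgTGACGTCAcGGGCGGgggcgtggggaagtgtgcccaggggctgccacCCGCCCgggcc
Tacr1, chr6:82402225-82402474, plus strand: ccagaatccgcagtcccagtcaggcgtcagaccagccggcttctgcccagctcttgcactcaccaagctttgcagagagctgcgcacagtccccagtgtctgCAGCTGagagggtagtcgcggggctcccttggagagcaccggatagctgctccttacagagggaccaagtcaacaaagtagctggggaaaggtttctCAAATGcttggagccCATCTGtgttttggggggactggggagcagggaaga
Tacr3, chr3:134828757-134829006, plus strand: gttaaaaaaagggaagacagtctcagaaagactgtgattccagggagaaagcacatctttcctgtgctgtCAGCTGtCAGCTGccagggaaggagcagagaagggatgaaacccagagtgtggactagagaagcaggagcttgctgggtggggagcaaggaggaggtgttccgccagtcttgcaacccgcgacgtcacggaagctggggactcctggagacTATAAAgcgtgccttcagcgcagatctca
The Sstr2 window held TGACGTCA 58 bases before the start and GC boxes 49 and 11 bases before it, and it had no E-box. TGACGTCA was present in 1.55% of the 32851 promoters of the table and the GC box in 32.7%. The Tacr3 window held TATAAA 29 bases before the start and E-boxes 180 and 173 bases before it, and TATAAA was present somewhere in the window of 12.4% of all promoters. The Tacr1 window held 3 E-boxes, 148, 51 and 36 bases before the RefSeq start, and none of the other motifs, and an E-box was present in 66.2% of all promoters. The start used for the position of the Tacr1 gene below, chr6:82402334, lies inside this window. The E-boxes at 51 and 36 bases lie after that start. No motif was shared by the Sstr2 and Tacr1 windows. These matches are letters only, and no binding was measured.

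Across cell types, Ntsr2 was an astrocyte transcript, Sstr1 was highest in OPCs, and Rxfp1, Ntsr1, Tacr1, Tacr3, Sstr2 and Sstr3 were highest in neurons. For Ntsr2 and Sstr1 the lowest library of the leading type was above the highest library of every other type. Such a gap held for 2 of the 9 receptors and for 9.76% of the 17513 genes compared. Those genes had at least 20 UMIs in each set of libraries, which Sstr4 (8 male and 12 female UMIs) did not. Ntsr2 (chr12:16653382-16660227, plus strand, build GRCm38) in astrocytes averaged 688 CPM ± 174 (SD, n = 10), with 326 in the lowest library, a median of 729 and 914 in the highest. The highest value of Ntsr2 in any other type was 194 CPM in the fibroblasts of a single library. Both deposited astrocyte clusters carried it, Astrocytes (1) at 591 CPM ± 118 (SD, n = 10) and Astrocytes (2) at 947 CPM ± 102 (SD, n = 9). The ranges of these clusters did not overlap, since Astrocytes (1) reached 735 CPM and Astrocytes (2) began at 858. The share of all genes with such a gap between these clusters was not counted. Astrocytes (2) also held a larger part of the astrocyte UMIs in female than in male libraries.

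Neurons had Ntsr2 at 10.0 CPM ± 4.97 (SD, n = 10), which was 1.46% of the astrocyte level. The astrocyte markers Agt, Aqp4 and Slc1a3 stood in neurons at 0.88%, 1.10% and 0.69% of their astrocyte levels. After each nucleus was thinned to 2000 UMIs, Ntsr2 was found in 70.3% ± 9.84 of astrocytes (SD, n = 10), 5.28% ± 4.31 of oligodendrocytes and 2.13% ± 1.03 of neurons. Without thinning the shares were 78.8%, 5.84% and 8.45%, at median depths of 3006.5, 2321 and 11157 UMIs per nucleus. Thinning removes more UMIs from neurons than from the shallower oligodendrocytes, so these shares do not tell neuronal Ntsr2 from free RNA, whose part was not tested.

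Sstr1 (chr12:58211772-58214444, plus strand) in OPCs averaged 35.5 CPM ± 22.7 (SD, n = 9), with 11.6 in the lowest library, 31.4 as the median and 87.5 in the highest. The 75 UMIs behind it came from 68 of 473 nuclei and from all 9 libraries, and no nucleus held more than 2. Neurons, the next type, were at 2.10 CPM ± 0.95, below OPCs in 9 of 9 libraries. No other somatostatin receptor was highest in OPCs. Thinned to 2000 UMIs, 6.83% ± 3.19 of OPCs held it (SD, n = 9; 14.1% without thinning, median depth 3658) and 0.142% of oligodendrocytes (0.232% without thinning).

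The 6 receptors led by neurons were less sharply placed between types. Rxfp1 was at 17.0 CPM ± 2.72 in neurons (SD, n = 10) and at 12.9 CPM ± 15.0 in microglia, and neurons were above microglia in 7 of 10 libraries. The microglial level rested on 26 UMIs in 21 of 993 nuclei and all 10 libraries, with 5 of the UMIs in 1 nucleus. Male library 1 alone stood at 53.8 CPM. At 2000 UMIs per nucleus, 2.39% ± 1.496 of microglia and 2.61% ± 0.447 of neurons held Rxfp1 (SD, n = 10 each). Without thinning the shares were 2.35% and 8.79%. The mean level of Rxfp1 in microglia was 75.98% of its neuronal level, against 21.7% for Snap25 and 13.3% for Rbfox3. The part of free RNA in the microglial level was not tested. Tacr1 averaged 21.8 CPM ± 15.5 in neurons, Tacr3 17.3 ± 5.45, Sstr2 10.5 ± 4.94, Ntsr1 5.37 ± 1.13 and Sstr3 3.13 ± 0.93 (SD, n = 10 each). The next types were endothelial cells for Tacr1 and Tacr3, fibroblasts for Sstr2, oligodendrocytes for Ntsr1 and microglia for Sstr3, each with some library above the lowest neuronal library. Those values rested on few counts, 3 Sstr2 UMIs in all fibroblasts and 8 Ntsr1 UMIs in all oligodendrocytes. Sstr4 was near absent, with 20 UMIs in the matrix, 17 of them in neurons and 2 in fibroblasts, and no order of types can be read from it. The plot of levels by cell type shows the spread over libraries.

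**Figure D1:**
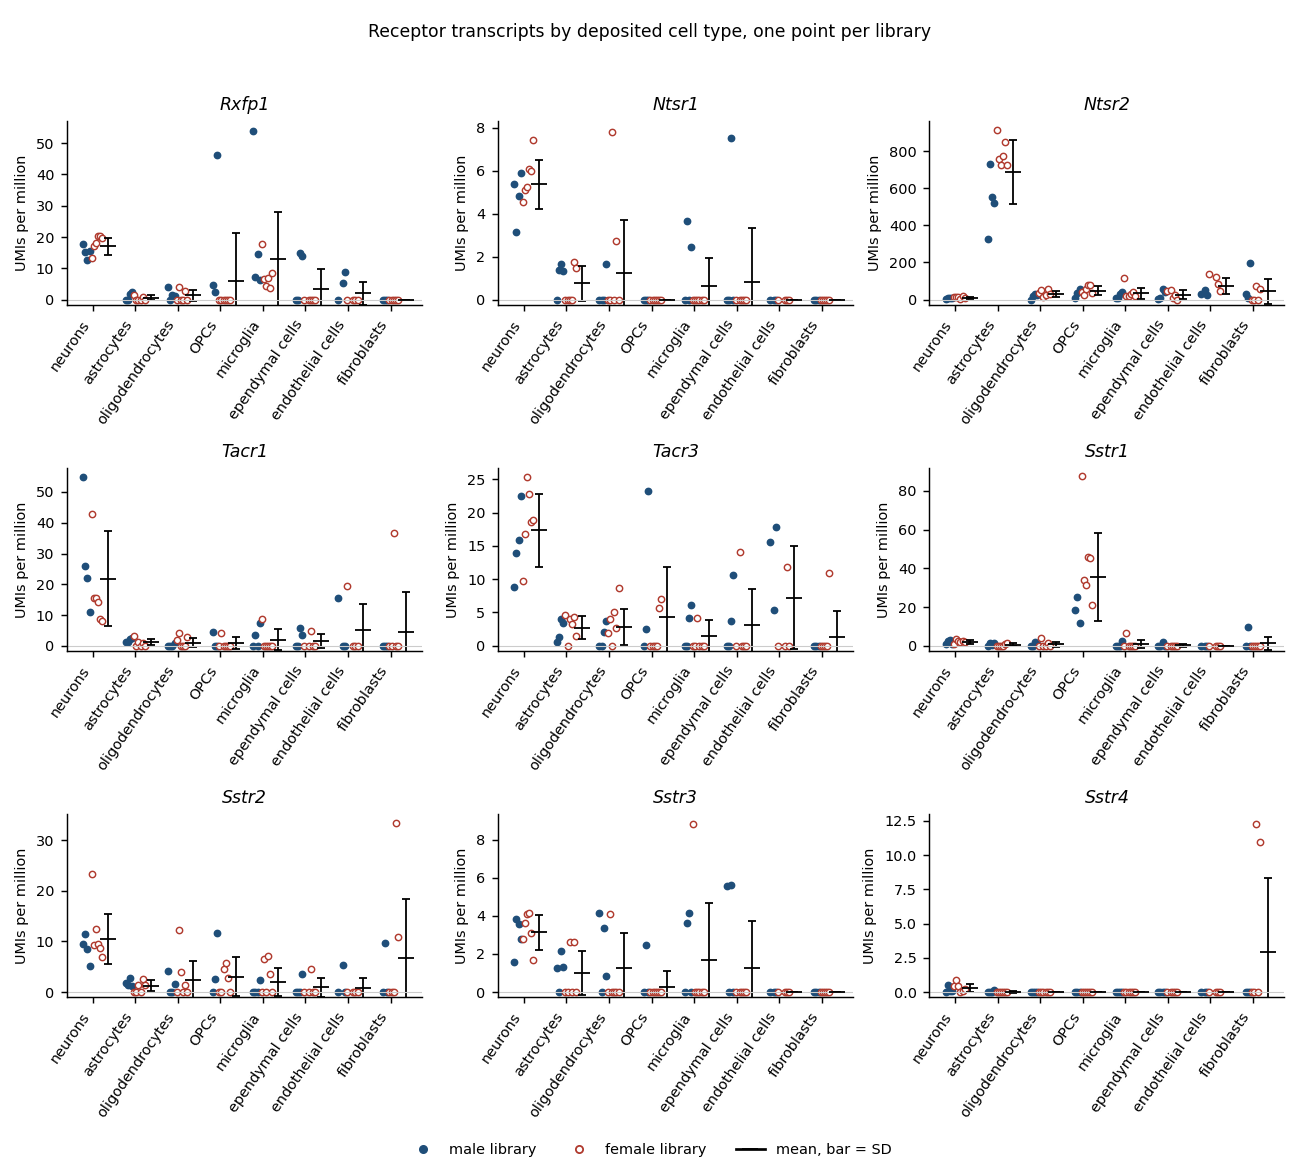
Level of each receptor (CPM, linear axis, 1 point per library, filled for male and open for female) in the 8 deposited cell types, with the mean and SD beside the points and SD bars ended where they would leave the axis near 0. The Ntsr2 points of astrocytes (326 to 914) and the Sstr1 points of OPCs (11.6 to 87.5) lie above all others, while Rxfp1 has a microglial point at 53.8 above all neuronal points.

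Neurons were then split by the markers C1ql3, Adarb2, Lpl, Gad2 and Nwd2. Of the 10307 neurons with more than 1000 genes, 3148 were C1ql3-high, 1628 Adarb2-high, 882 Nwd2-high, 315 Gad2-high and 61 Lpl-high, and 4273 were given to no group. Adarb2-high neurons carried Grin2c (65.1 CPM) and Tspear (165 CPM), listed here as markers of the mediodorsal thalamus. Nwd2-high neurons carried the habenula markers Tac2 (1099 CPM), Chat (199.7 CPM) and Chrnb3 (98.5 CPM). The Gad2-high group was mixed, since it held C1ql3 (218 CPM) beside the inhibitory marker Slc32a1 (41.9 CPM). Lpl-high neurons reached 10 nuclei in only 2 libraries and were left out of the order of groups.

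Nwd2-high neurons were set apart by 2 receptors, Tacr1 and Sstr2, whose lowest library there was above the highest library of every other group. Of the 17513 genes, 2.78% had such a gap in whichever marker group led for them. The share in Nwd2-high neurons alone was not counted. Tacr1 (chr6:82402334-82560104, plus strand) averaged 199.5 CPM ± 57.3 (SD, n = 10), with 139 in the lowest library, a median of 186 and 285 in the highest. No library of another marker group exceeded 14.5 CPM, neurons in no group reached 24.0 CPM, and the next group, Gad2-high neurons, averaged 5.24 CPM ± 6.00 (SD, n = 8). C1ql3-high and Adarb2-high neurons stood at 3.06 CPM ± 1.44 and 3.54 CPM ± 1.99 (SD, n = 10 each). Of the 2426 Tacr1 UMIs of all neurons, 1750 lay in these 882 nuclei. At 2000 UMIs per nucleus, 29.7% ± 6.21 of Nwd2-high neurons held Tacr1 against 0.564% ± 0.284 of C1ql3-high neurons and 0.294% ± 0.659 of oligodendrocytes (SD, n = 10 each), and without thinning the shares were 54.5%, 2.60% and 0.266% at median depths of 7422.5, 11819.5 and 2321 UMIs.

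Over all neurons, the level of Tacr1 differed between libraries with the share of Nwd2-high neurons. Male library 1 and female library 1, with 25.3% and 25.9% of their neurons Nwd2-high, stood at 54.8 and 42.7 CPM over all neurons. Female library 6, with 2.33%, stood at 7.92 CPM. Within Nwd2-high neurons the highest library was 285 CPM and the lowest 139. How far the share of Nwd2-high neurons sets the level over all neurons was not tested.

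Sstr2, a somatostatin receptor that couples to Gi, averaged 51.5 CPM ± 15.8 in Nwd2-high neurons (SD, n = 10), with 28.8 in the lowest library, a median of 49.5 and 72.3 in the highest. C1ql3-high neurons followed at 8.65 CPM ± 3.45, with 15.6 in their highest library, and Adarb2-high neurons stood at 2.88 CPM ± 1.39. Thinned to 2000 UMIs, 10.5% ± 2.83 of Nwd2-high neurons held Sstr2 and 0.283% ± 0.632 of oligodendrocytes (28.5% and 0.499% without thinning). Sstr2 (chr11:113619342-113626028, plus strand) lies wholly inside Slc39a11, a zinc transporter gene on the other strand, and all 2143 of its exon bases are covered by that gene. Slc39a11 was also highest in Nwd2-high neurons, at 119 CPM ± 23.5, against 57.2 CPM ± 24.8 in Gad2-high and 50.5 CPM ± 7.53 in C1ql3-high neurons. In microglia Slc39a11 stood at 64.0 CPM ± 18.8 and Sstr2 at 1.96 ± 2.83 (SD, n = 10). In ependymal cells Slc39a11 stood at 56.7 CPM ± 20.2 and Sstr2 at 0.91 ± 1.82 (SD, n = 9). The sources used here do not say whether strand was used in counting, and the part of Slc39a11 reads in the Sstr2 level was not tested.

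The other receptors were low in Nwd2-high neurons. Rxfp1 stood at 2.46 CPM ± 4.57, Tacr3 at 5.84 ± 5.92, Sstr3 at 0.93 ± 1.70, Ntsr1 at 0.30 ± 0.52 and Sstr1 at 0.10 ± 0.31 (SD, n = 10 each). Sstr4 had 10 of its 17 neuronal UMIs there, 4.04 CPM ± 6.49, with libraries at 0 and a highest value of 18.4. In the same nuclei, 194 held both Tacr1 and Sstr2, where 178 were expected from the product of their shares within library and depth, so 71.9% of the Sstr2-positive and 36.3% of the Tacr1-positive nuclei held both. That count was above the expected number in 6 of 10 libraries, a comparison added after the levels had been seen.

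Adarb2-high neurons led for Rxfp1, Ntsr1 and Sstr3. Rxfp1 (chr3:79641611-79737880, minus strand) averaged 34.1 CPM ± 6.95 there (SD, n = 10), with 22.8 in the lowest library, a median of 33.2 and 50.1 in the highest. C1ql3-high neurons were at 10.9 CPM ± 5.60 and were below Adarb2-high neurons in 10 of 10 libraries. The 2 libraries of Lpl-high neurons, left out of the order, stood at 19.0 and 51.4 CPM. Their mean of 35.2 CPM was above that of Adarb2-high neurons. Ntsr1 was at 8.86 CPM ± 3.08 in Adarb2-high and 3.56 CPM ± 1.69 in C1ql3-high neurons, and the Gad2-high group between them (5.36 CPM ± 5.82, n = 8) overlapped both. Sstr3, found elsewhere mainly in neuronal cilia, was at 4.38 CPM ± 1.86 in Adarb2-high and 3.02 CPM ± 1.29 in C1ql3-high neurons, which do not differ beyond their spread. Thinned to 2000 UMIs, 5.49% ± 1.10 of Adarb2-high neurons held Rxfp1 (19.7% without thinning, median depth 12752) and 0.198% ± 0.396 of oligodendrocytes (0.345% without thinning).

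Within Adarb2-high neurons, nuclei were counted that held both the Gs-coupled RXFP1 transcript and that of a Gq-coupled receptor. Rxfp1 and Tacr3 were together in 88 nuclei against 60.3 expected within library and depth, above expectation in 9 of 10 libraries. Rxfp1 and Ntsr1 were together in 59 against 37.8, above in 7 of 10 libraries, and Ntsr1 and Tacr3 in 38 against 26.2, above in 8 of 10. Rxfp1 and Ntsr2 were together in 22 against 29.7. In C1ql3-high neurons, Rxfp1 and Tacr3 were together in 36 nuclei against 29.6 expected, above in 5 of 10 libraries. Rxfp1 and Ntsr1 were there in 10 against 8.42 (3 of 10), Ntsr1 and Tacr3 in 27 against 23.4 (5 of 10), and Rxfp1 and Ntsr2 in 21 against 17.5 (5 of 10). Other pairs in C1ql3-high neurons had larger excesses. Tacr1 and Tacr3 were in 30 against 17.8 (5 of 10), Tacr3 and Sstr1 in 21 against 13.1 (7 of 10). Sstr1 and Sstr2 were in 15 against 6.71 (6 of 10). Some pairs lay below expectation, such as Ntsr2 and Tacr3 in 39 against 48.4 (2 of 10). These are counts of nuclei, which are not replicates, and no test was made. The expected counts did not allow for deposited clusters, and Adarb2-high neurons held 983 nuclei of Neurons (3), 276 of Neurons (8) and 228 of Neurons (7). Neurons (8) was above Neurons (3) in mean level for Rxfp1 (68.2 against 28.0 CPM), Tacr3 (36.7 against 7.05) and Ntsr1 (20.6 against 7.69). The part of this mix in the counts was not tested.

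Tacr3, the neurokinin B receptor, was spread over several groups. It averaged 19.8 CPM ± 6.58 in C1ql3-high neurons (SD, n = 10), with 8.66 in the lowest library, a median of 19.0 and 29.2 in the highest, and 15.8 CPM ± 5.37 in Adarb2-high neurons. C1ql3-high neurons were above Adarb2-high neurons in 6 of 10 libraries, so these groups do not differ beyond their spread. Nwd2-high neurons were below C1ql3-high neurons for Tacr3 and above them for Tacr1. Sstr1 was low throughout, at 4.85 CPM ± 3.84 in Gad2-high (SD, n = 8) and 2.67 CPM ± 1.48 in C1ql3-high neurons, and the ranges of these groups overlapped. Ntsr2 had its highest neuronal mean in Gad2-high neurons, 20.5 CPM ± 26.3 (SD, n = 8) with a library at 80.0 and 12.0 without that library, and they were above Nwd2-high neurons (10.5 CPM ± 9.91) in 4 of 8 libraries.

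**Figure D2:**
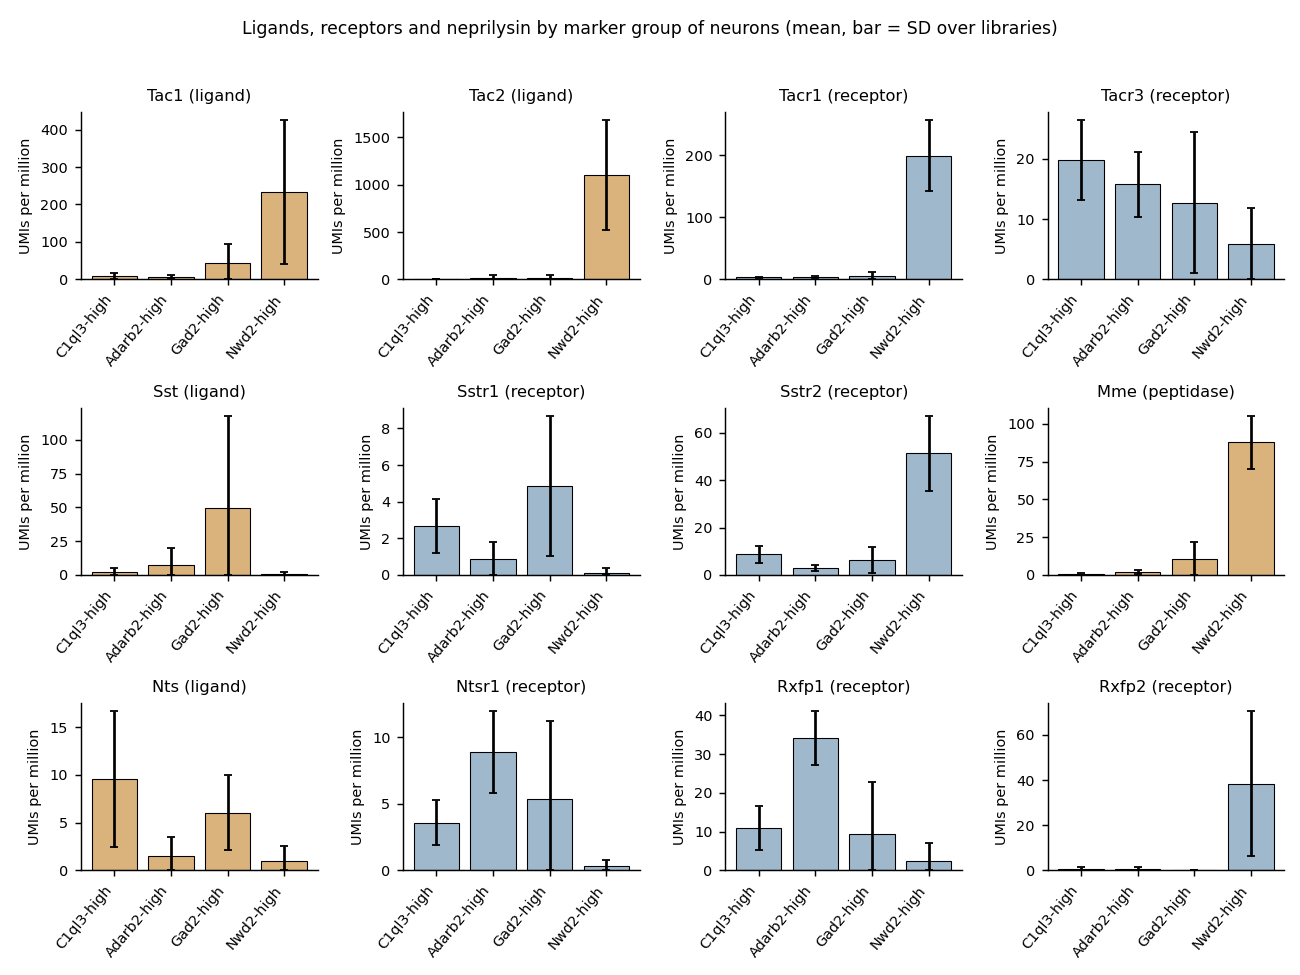
Mean level (CPM, linear axis from 0, bars with SD over 8 to 10 libraries) of 6 receptors of the list with Rxfp2, their peptides and the peptidase Mme in 4 marker groups of neurons. Tacr1 (199.5), Sstr2 (51.5), Tac2 (1099) and Mme (87.8) peak in Nwd2-high neurons, Rxfp1 (34.1) and Ntsr1 (8.86) in Adarb2-high neurons, and Tacr3 (19.8) and Nts (9.54) in C1ql3-high neurons.

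The neuron clusters deposited by the authors, which did not rest on these 5 markers alone, gave a finer order. Neurons (6), 95.2% Nwd2-high, again led for Tacr1 (211 CPM ± 55.6) and Sstr2 (53.8 CPM ± 16.5). These were the 2 of the 9 receptors whose leading neuron cluster was clear of every other. That held for 2.29% of the 17513 genes, each in its own leading cluster. The margin for Sstr2 was narrow, since its lowest library in Neurons (6) was at 28.67 CPM and a library of Neurons (5) was at 28.43. Neurons (5) was second for both, with Tacr1 at 32.2 CPM ± 12.1 and Sstr2 at 14.7 CPM ± 6.48 (SD, n = 10 each). Only 5.35% of Neurons (5) was Nwd2-high.

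Neurons (8) led for Rxfp1, Ntsr1 and Tacr3. Rxfp1 was at 68.2 CPM ± 18.7 there, with 41.6 in the lowest library and 95.6 in the highest, and was above Neurons (7), at 29.4 CPM ± 9.71, and Neurons (3), at 28.0 ± 7.77 (SD, n = 10 each). Ntsr1 was at 20.6 CPM ± 9.31 in Neurons (8) and 7.69 ± 3.62 in Neurons (3), and was higher in the former in 9 of 10 libraries. Tacr3 was at 36.7 CPM ± 12.1 in Neurons (8), 25.0 ± 11.2 in Neurons (7), 23.8 ± 6.67 in Neurons (1) and 21.1 ± 7.26 in Neurons (2), and the last 3 do not differ beyond their spread. Neurons (8) was 41.1% Adarb2-high and 9.54% C1ql3-high, so it cut across the marker groups.

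Neurons (4) and Neurons (3) each held some of these receptors and little of others. Neurons (4), 47.5% C1ql3-high, held Tacr3 at 1.91 CPM ± 1.65 and Tacr1 at 0.87 ± 1.07, and a single Ntsr1 UMI, while Rxfp1 was at 13.4 CPM ± 8.31 and Sstr2 at 10.3 ± 4.57. Its Ntsr2, at 22.7 CPM ± 10.1, was the highest of the neuron clusters and was above Neurons (5) (15.0 CPM ± 9.30) in 8 of 10 libraries, with ranges that overlapped. Neurons (3), 89.7% Adarb2-high, held Sstr2 at 0.82 CPM ± 0.76 and Sstr1 at 0.08 ± 0.17, beside Rxfp1 at 28.0 CPM ± 7.77, Ntsr1 at 7.69 ± 3.62 and Tacr3 at 7.05 ± 4.33. Sstr1 was highest in Neurons (2), at 7.15 CPM ± 4.73, with Neurons (5) at 4.63 ± 3.17, and was the only member led by Neurons (2). Sstr3 was alike in Neurons (7) at 4.77 CPM ± 2.28 and Neurons (3) at 4.68 ± 2.09. Sstr4 had 12 UMIs in Neurons (6), from 6 of 10 libraries, and 5 in the other 7 neuron clusters.

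**Figure D3:**
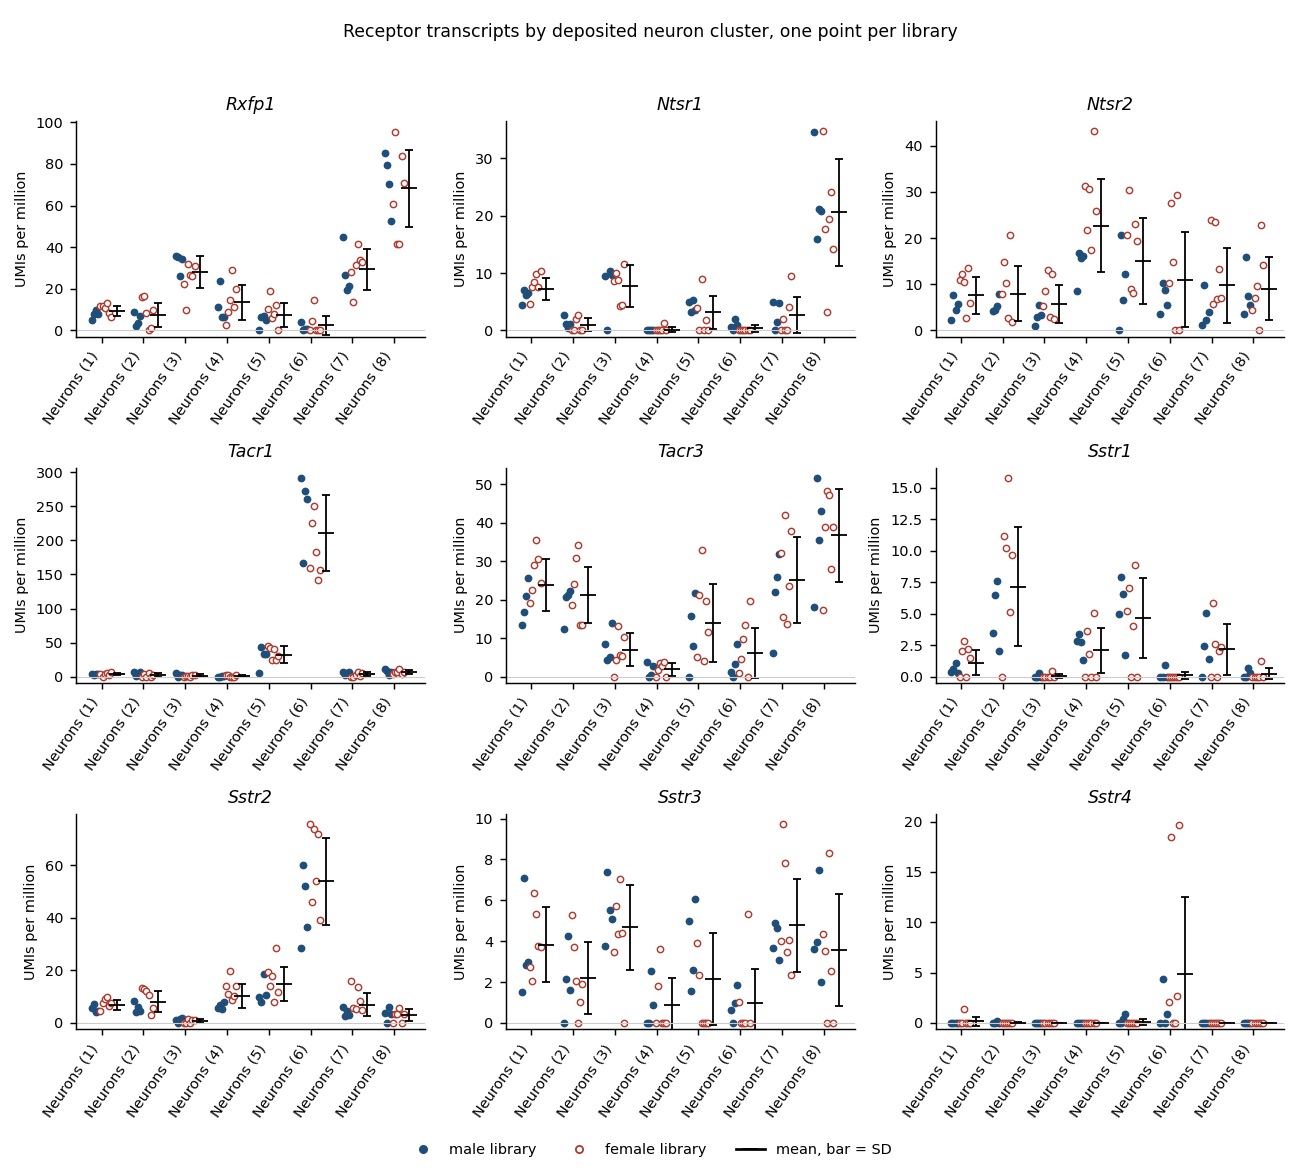
Level of each receptor (CPM, linear axis, 1 point per library, filled for male and open for female) in the 8 deposited neuron clusters, with the mean and SD beside the points and SD bars ended where they would leave the axis near 0. Tacr1 (mean 211) and Sstr2 (mean 53.8) peak in Neurons (6), and Rxfp1 (68.2), Ntsr1 (20.6) and Tacr3 (36.7) in Neurons (8).

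Of the peptides that these receptors bind, the tachykinin transcripts Tac1 and Tac2 were found in Nwd2-high neurons, the group that led for Tacr1. Whether the same nuclei held them and Tacr1 was not counted. Tac2 averaged 1099 CPM ± 583 in Nwd2-high neurons (285 to 2001 over 10 libraries) and Tac1 233 CPM ± 193 (3.60 to 521), so Tac1 differed between libraries far more than Tacr1. Tac1 was also found in OPCs, at 37.2 CPM ± 18.9 (SD, n = 9). The neutral endopeptidase Mme (neprilysin), which degrades tachykinins, stood at 87.8 CPM ± 17.5 in Nwd2-high and 0.67 CPM ± 0.53 in C1ql3-high neurons, and the receptor Rxfp2, which binds the peptide INSL3, at 38.5 CPM ± 32.0 and 0.66 ± 0.86. Tac2 stood at 3.17 CPM ± 3.05 in C1ql3-high and 15.5 CPM ± 26.7 in Adarb2-high neurons, where its receptor Tacr3 was higher than in the Tac2-rich neurons.

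Somatostatin and neurotensin transcripts were less abundant. Sst was at 0.87 CPM ± 1.55 in Nwd2-high neurons, the group with the most Sstr2, and at 56.5 CPM ± 47.6 in Neurons (5), the second cluster for Sstr2. Nts was highest in Neurons (4), at 31.1 CPM ± 18.0, the cluster in which a single Ntsr1 UMI was found. Of the relaxin family transcripts, Rln1, Rln3 and Insl3 were near absent from neurons, with 19, 2 and 1 UMIs, while Insl5 had 209. The receptors Tacr2 (16 UMIs), Sstr5 (23), Rxfp3 (35) and Rxfp4 (0) were near absent from neurons as well.

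Transcripts of the proteins that carry the signal onward were found in the marker groups compared, at uneven levels. Gnaq, the alpha subunit that TACR1 and NTSR1 use, stood at 90.3 CPM ± 26.0 in Nwd2-high, 246 CPM ± 20.9 in C1ql3-high and 201 CPM ± 19.0 in Adarb2-high neurons, and its effector Plcb1 at 110 CPM ± 44.5, 418 ± 39.2 and 456 ± 55.7. Gnao1, the Go subunit that SSTR2 uses, was at 492 CPM ± 53.6 in Nwd2-high and 325 CPM ± 28.7 in C1ql3-high neurons. The potassium channel subunit Kcnj3, opened by Gi and Go receptors, was at 49.1 CPM ± 14.9 in Nwd2-high and 285 CPM ± 73.8 in Adarb2-high neurons. In Adarb2-high neurons, where Rxfp1 led, the calcium-stimulated adenylyl cyclase Adcy8 was at 523 CPM ± 45.0 and Adcy1 at 112 CPM ± 17.3, against 231 ± 22.0 and 48.4 ± 6.64 in C1ql3-high neurons.

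By Pearson correlation of log2(CPM + 1) over 11 profiles (7 non-neuronal types and 4 marker groups) among 15567 genes, the most similar genes were Slc6a11 (r = 0.988) and Acsbg1 (0.980) for Ntsr2, and Cacnb3 (0.977) and Gm12130 (0.965) for Tacr1. For Sstr2 they were Tex15 (0.924) and Gm31522 (0.924), for Rxfp1 Gemin5 (0.957) and Parp1 (0.909), and for Sstr1 Chst5 (0.970) and Matn1 (0.945). For Tacr3 they were Gm14329 (0.959) and Gm34821 (0.933), for Ntsr1 Gpr1 (0.948) and Mlip (0.948), and for Sstr3 A730090N16Rik (0.974) and Spata2l (0.931). Slc6a11 is an astrocyte GABA transporter and Cacnb3 a calcium channel subunit. The profiles share libraries and depth, and the values are descriptions of 11 points.

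The comparison that the labels allow is of the 6 female with the 4 male libraries, and the choice of the receptors did not rest on it. It was made with edgeR's quasi-likelihood test with Benjamini-Hochberg adjustment over all genes tested, in neurons, C1ql3-high neurons and astrocytes, and, added after the levels had been seen, in Nwd2-high and Adarb2-high neurons. No receptor passed an adjusted p of 0.05 in any of the 5, of 8, 4, 1, 2 and 2 receptors that passed the filter on low counts, while 5.87%, 6.00%, 7.31%, 2.04% and 3.16% of all genes tested did. At an unadjusted p under 0.05 the count was 1 in neurons (Ntsr2), 2 in C1ql3-high neurons (Ntsr2 and Sstr2), and 1 each in astrocytes (Ntsr2), Nwd2-high (Tacr1) and Adarb2-high neurons (Rxfp1). Of all genes tested, 20.8%, 21.7%, 26.6%, 15.0% and 14.0% had such a p in these comparisons. The share of receptors lay below that of all genes in neurons and above it in the other classes. With 8, 4, 1, 2 and 2 receptors tested, the counts are too small to tell their share from that of all genes. DESeq2's Wald test called 1 of them, Ntsr2 in astrocytes, where it called 10.0% of all genes tested.

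Ntsr2 in astrocytes was at 326, 730, 551 and 520 CPM in male libraries 1 to 4, and between 724 and 914 (median 767) in the female libraries. The female values lay above 3 of the 4 male values and overlapped male library 2. The difference was 0.59 ± 0.18 on the log2 scale (female minus male, SE), with an adjusted p of 0.0647 by edgeR with Benjamini-Hochberg adjustment. DESeq2's Wald test gave 0.0435, where 10.0% of genes were called. Without male library 2 edgeR gave 0.0036, where 24.7% of genes were called. The adjusted p ranged from 0.0036 to 0.454 among the alternatives. The deposited cluster Astrocytes (2), in which Ntsr2 was higher, held 1.28% to 11.3% of the astrocyte UMIs of the male and 42.9% to 50.8% of those of the female libraries. Within Astrocytes (1) alone, Ntsr2 was at 327, 700, 538 and 515 CPM in male libraries 1 to 4 and between 560 and 735 (median 633) in the female libraries. The difference there, an alternative added after the data were seen, was 0.32 ± 0.18 (SE) on the log2 scale, with an adjusted p of 0.454 by edgeR. In neurons the same gene was at 3.28 to 9.79 CPM in male and 4.44 to 18.3 CPM in female libraries, a difference of 0.85 ± 0.34 (adjusted p = 0.184 by edgeR).

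Sstr2 in C1ql3-high neurons was at 5.93, 5.70, 5.45 and 5.53 CPM in male libraries 1 to 4, and between 6.78 and 15.6 (median 11.1) in the female libraries. The groups did not overlap, and the share of all genes without such overlap was not counted. By edgeR, 6.00% of genes were called in this comparison, Sstr2 not among them, and 21.7% had an unadjusted p under 0.05. The difference was 0.82 ± 0.26 on the log2 scale (SE), with an adjusted p of 0.0822 by edgeR with Benjamini-Hochberg adjustment. It was 0.0463 when all genes of the matrix were kept, where 13.6% of genes were called, and 0.0483 without female library 5, where 4.17% were, within a range of 0.0463 to 0.184. In Nwd2-high neurons, where Sstr2 was highest, it was at 28.8, 58.9, 52.1 and 34.2 CPM in male and 36.8 to 72.3 CPM in female libraries, a difference of 0.41 ± 0.25 (adjusted p = 0.464 by edgeR).

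Tacr1 in Nwd2-high neurons was at 285, 165, 268 and 249 CPM in male libraries 1 to 4, and between 139 and 241 (median 147) in the female libraries. The groups overlapped through male library 2. The difference was -0.60 ± 0.22 on the log2 scale (SE), with an adjusted p of 0.207 by edgeR. Without male library 2 it was 0.0207 by edgeR, where 12.7% of genes were called. Rxfp1 in Adarb2-high neurons was at 50.1, 33.5, 36.5 and 36.9 CPM in male and 22.8 to 35.9 CPM in female libraries, a difference of -0.40 ± 0.16 (adjusted p = 0.273 by edgeR), and Tacr3 there differed by 0.0075 ± 0.30 (adjusted p = 0.997). In C1ql3-high neurons Rxfp1 differed by 0.69 ± 0.33 (adjusted p = 0.237), so the estimates for Rxfp1 had opposite signs in these groups of neurons, and that contrast was not tested.

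Among the remaining receptors in neurons, the differences were 0.16 ± 0.16 for Rxfp1, 0.12 ± 0.23 for Ntsr1, 0.17 ± 0.29 for Tacr3, 0.22 ± 0.43 for Sstr1, 0.38 ± 0.31 for Sstr2 and 0.056 ± 0.29 for Sstr3 (log2, SE), with adjusted p from 0.51 to 0.936 by edgeR. Tacr1 over all neurons differed by -0.80 ± 0.48 (adjusted p = 0.375), beside the shares of Nwd2-high neurons given above. Sstr1 in OPCs was not tested and stood at 18.4, 24.9 and 11.6 CPM in 3 male and 21.1 to 87.5 CPM in 6 female libraries. Of the 49 ligand, receptor and signalling genes listed with the receptors, 37 were tested in neurons, with 0 higher and 1 lower in female libraries and a median difference of -0.084 against -0.0081 for all genes. The lower gene was Ece2, a peptidase that cleaves neuropeptides, at -3.34 ± 0.11 (adjusted p = 2.3e-09 by edgeR). The counts were also 0 higher and 1 lower of 32 in C1ql3-high neurons, of 26 in astrocytes, of 30 in Nwd2-high and of 27 in Adarb2-high neurons, where the lower gene was Ece2 in the neurons and the potassium channel subunit Kcnj3 in astrocytes (-1.19, adjusted p = 0.0332 by edgeR). The gene lists of the libraries differed, so the part of gene annotation in the Ece2 value was not tested. These counts are of the main setting, and some alternatives by edgeR or DESeq2 called other listed genes. Kcnj3 in astrocytes had an adjusted p of 0.0035 to 0.552 among the alternatives, so its call was lost in some. The part of the Astrocytes (2) share and of free RNA in the Kcnj3 value was not tested. In Nwd2-high neurons, Tac1 (1.93 ± 0.88 in the main setting) had an adjusted p of 7.3e-05 to 0.567 among the alternatives. Adcy8 (-0.65 ± 0.17) had 0.0062 to 0.457 there.

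**Figure D4:**
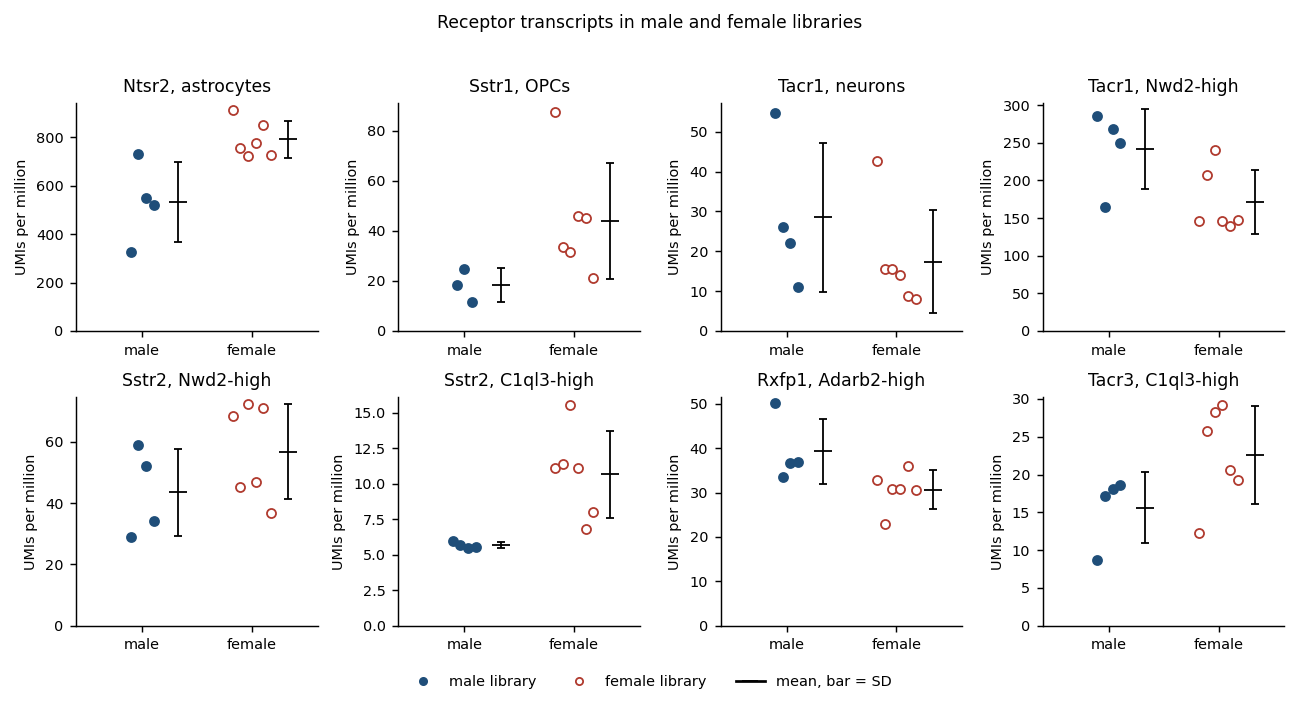
Level (CPM, linear axis from 0, 1 point per library, mean and SD beside the points) of 6 receptors in male and female libraries, in 8 combinations of receptor and class. Female points of Sstr2 in C1ql3-high neurons (6.78 to 15.6) lie above the male points (5.45 to 5.93). Sstr2 was not called there (adjusted p = 0.0822 by edgeR), and the share of all genes without such overlap was not counted. Male library 2 (165) is the male point within the female range for Tacr1 in Nwd2-high neurons.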

How the data were processed

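The authors prepared nuclei from fresh PVT punches with the 10x Genomics single cell 3' v3 kit. Per the submitters' processing notes reads were aligned to mm10 with Cell Ranger 6.1.1, whereas the paper's methods name an older version. The deposited matrix held raw UMI counts per gene and nucleus, whole numbers, after the authors had removed nuclei with few genes or many mitochondrial reads and clusters of low quality or doublets. The deposited table of nuclei gave the library, sex, cluster and the percent of mitochondrial UMIs made by the authors. Cell types were taken here from the cluster names, with numbered clusters of the same name merged. Of its columns, 21 were not used. Whether strand was used in counting is not stated.

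UMIs were summed per library and class of at least 10 nuclei and given per 1000000 non-mitochondrial UMIs (CPM). Neurons with more than 1000 genes were placed in the marker group with the highest CPM relative to that marker's mean in the same set of libraries, if that ratio was at least 1 and the nucleus held at least 2 UMIs of the marker. For thinned shares, no UMIs were drawn. The probability that a random draw of 2000 UMIs (4000 as an alternative) keeps at least 1 UMI of the gene was calculated for each nucleus. It was averaged over the nuclei of a library and class, and shallower nuclei were left out. A count of 0 allows up to 3 counts, and these limits cover counting error only. Co-detection was set against the product of shares within library and 10 strata of depth, and not within deposited clusters.

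Female and male libraries were compared with edgeR 4.0.16 (TMM, filterByExpr, quasi-likelihood test, Benjamini-Hochberg over all genes tested, adjusted p of 0.05) in R 4.3.3, with DESeq2 1.42.0 as an alternative. Mitochondrial genes and genes with 0 UMIs in all libraries of either set were left out of the test, because the gene lists of the sets differed. The test was tried on simulated data with known changes. The p-values measure the spread between libraries, each a pool of animals where the methods say so. Replicate numbers did not pair the libraries.

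The members and lists were chosen with earlier results of these data known. The comparisons in Nwd2-high and Adarb2-high neurons, the co-detection in Nwd2-high neurons and the need for 3 libraries in a leading group were chosen after values had been seen. All 9 receptors are named, pathway genes by their role, and for each receptor except Sstr4 the 2 genes most like it. Tables used Python 3.11.15.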

Additional observations from a re-analysis of the deposited data

Results flagged for a closer look

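Of 49 groups of libraries examined, 5 held a library whose gap to its nearest neighbour was large for the range of its group. Chance gives about 1 in 20 such groups. In neurons, female library 1 stood at 42.7 CPM for Tacr1 with the nearest other female library at 15.6, and at 23.3 CPM for Sstr2 with the nearest at 12.5. Female library 1 also had the largest share of Nwd2-high neurons of the 10 libraries, 25.9%, and its Tacr1 and Sstr2 levels within Nwd2-high neurons were not flagged. The part of that share in both values was not tested.

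Tacr3 in C1ql3-high neurons was at 8.66 CPM in male library 1, below the other male libraries, of which the nearest was at 17.1. Ntsr2 in Neurons (4) was at 8.48 CPM in male library 1, with the nearest male library at 15.7. Ntsr2 in Gad2-high neurons was at 31.8 CPM in male library 2, with the nearest male library at 8.90.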

How the results depend on the processing

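Levels by class changed little with the settings. Tacr1, Sstr2 and Ntsr1 were led by the same class in all settings of each scheme, while Rxfp1 moved from Adarb2-high to Lpl-high neurons in 2 of 18, Sstr1 from Gad2-high to C1ql3-high neurons in 1 of 17 and from Neurons (2) to Neurons (5) in 1 of 14, and Sstr3 from Neurons (7) to Neurons (3) in 5 of 14 and from neurons to ependymal cells in 1 of 15. With at most 1% mitochondrial UMIs per nucleus by the deposited percent, OPCs had sums in fewer than 3 libraries and gave no value for Sstr1. Depth set the shares of nuclei, and Tacr1 in Nwd2-high neurons went from 29.7% at 2000 UMIs to 46.1% at 4000 and 54.5% without thinning.

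Counts of genes differing between female and male libraries depended on the settings, from 828, 698, 685, 162 and 294 in neurons, C1ql3-high neurons, astrocytes, Nwd2-high and Adarb2-high neurons. Without the filter on low counts they were 1296, 1178, 1241, 501 and 683. With all genes of the matrix they were 2316, 1678, 1375, 595 and 837. With the replicate block, in neurons, C1ql3-high neurons and astrocytes, they were 397, 334 and 196. With the nuclei of Astrocytes (1) alone, an alternative added after the data were seen, the astrocyte count was 215. Same-numbered libraries had correlated deviations between -0.44 and 0.14, so the numbers do not pair them. Leaving out 1 library gave 613 to 2284, 455 to 1784, 319 to 2405, 117 to 874 and 251 to 424. The highest were without male library 2, and the causes were not tested. In astrocytes the count was also 319 without male library 4, 417 without male library 3, and 380 to 427 without each of female libraries 1 and 3 to 6, and in C1ql3-high neurons 455 without male library 3 and 460 without female library 5.

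Small differences changed sign when 1 library was left out, Ntsr1 (-0.016 to 0.29), Tacr3 (-0.017 to 0.49), Sstr1 (-0.049 to 0.67) and Sstr3 (-0.13 to 0.18) in neurons, and Tacr3 in Adarb2-high neurons (-0.20 to 0.35), which was also -0.035 without the filter (log2). Few UMIs limit Sstr1, Sstr3 and Sstr4 most.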
